A study of Mus musculus with 137 samples.

Results

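The injury of the old mouse lung by bleomycin was compared between day 42 and day 21. The quantity was a difference of differences: bleomycin minus saline at day 42, minus bleomycin minus saline at day 21, for each gene. It rested on 23 libraries, 16.8% of the series, which were all the lungs labelled old and taken at those days, and it was computed with and without library 753_125, 1 of the old saline lungs of day 42. The series followed fibrosis of the mouse lung and its repair by mRNA sequencing of lung in 2 age classes. All mice were male C57BL/6J with no genetic change named in the labels. The old mice were 21 months old. They received bleomycin sulphate at 0.63 mg/kg or saline (NaCl) in the trachea. There were 6 saline and 6 bleomycin lungs at day 21, and 6 saline and 5 bleomycin lungs at day 42. Each lung was 1 library, made from 20 mg of frozen, homogenised tissue, so every value is a mean over the cell types of the lung. Young mice of 8 to 12 weeks, used here for 1 comparison, had received 0.7 mg/kg, so age and dose cannot be told apart.

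Bleomycin breaks DNA in lung cells, and the wounded tissue fills with macrophages and dividing cells. Fibroblasts then lay down fibrillar collagen, fibronectin, elastin and the sugar polymer hyaluronan, and in mice much of this scar is removed again over the following weeks. A negative difference below means that a gene stood less far above saline, or further below it, at day 42 than at day 21. A positive one means the reverse.

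Levels are given as CPM, counts per 1000000 reads after scaling of the libraries to each other. Differences are log2 values ± standard error from edgeR, where 1 is a doubling. A gene was called when its p-value from the edgeR quasi-likelihood test, adjusted by the Benjamini-Hochberg method over all genes tested, was under 0.05. The 23 libraries held 16.8 to 27.2 M assigned reads, M standing for 1000000. Lung-defining genes were present throughout, with Sftpc at 7381 to 18734 CPM, Ager at 1043 to 2542 CPM and Scgb1a1 at 5077 to 26662 CPM. The labels do not say which lungs shared a cage, litter or day of handling, and the spread behind the p-values was estimated over all 26 groups of the series and not over these lungs alone.

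Library 753_125 stood apart from the other lungs of its group. Its median correlation with the other 5 saline lungs of day 42, over log2 CPM, was 0.960, against 0.978 to 0.988 for the other 22 libraries with their own groups. The score of 22 proliferation genes, the mean of their log2 CPM, was 4.05 in it and 0.84 to 2.11 in the other 5. The score of 23 interferon-response genes was 6.57 in it and 4.27 to 5.17 in the others, and that of 25 genes of the interstitial matrix was 5.71 against 6.49 to 6.60. Markers of cytotoxic and NK cells (score 4.12 against 1.70 to 2.49) and of neutrophils (5.51 against 2.87 to 3.69) were high in it as well. Their part in the results was not tested other than by leaving the library out. In the plot of list scores it is marked by a diamond. Differences that rest on the saline lungs of day 42 were therefore computed both ways.

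**Figure D1:**
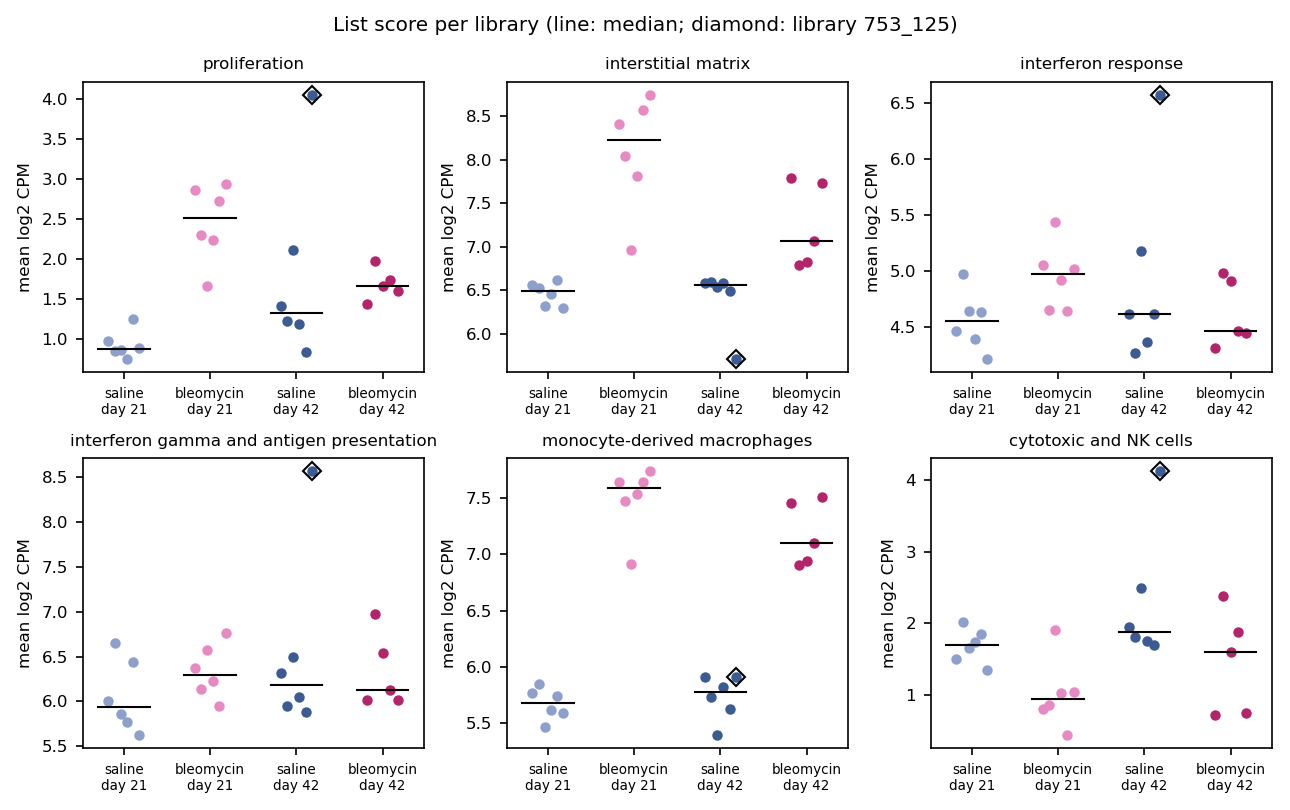
Mean log2 CPM of 6 gene lists (y axis) in each of the 23 old lungs, by treatment and day (x axis); each point is 1 library, lines are group medians and the diamond is library 753_125. Library 753_125 lies above the other 5 saline lungs of day 42 for proliferation (4.05 against 0.84 to 2.11) and below them for interstitial matrix (5.71 against 6.49 to 6.60), while the bleomycin lungs of day 42 fall into 2 higher and 3 lower ones for matrix.

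With all libraries the bleomycin effect differed between the days for 387 of 18396 genes. It was lower at day 42 for 297 (1.61% of the genes tested) and higher for 90 (0.489%). Without library 753_125 it differed for 86 of 18379 genes, 68 lower (0.37%) and 18 higher (0.0979%). At these shares a short gene list would hold few or no called genes, so a list below with none is not set apart by that. The genes called both with and without it (called both ways, below) numbered 72, with 54 lower and 18 higher, which is 18.6% of the genes called with library 753_125 and 83.7% of those called without it. Another 315 were called only with it, and 14, all lower, only without it. With the spread estimated over the 4 old groups alone, with 19 or 18 residual degrees of freedom, edgeR called 0 genes with library 753_125 and 0 without it. There 2217 and 2030 genes had an unadjusted p under 0.05, and the smallest adjusted p was 0.14 and 0.13. The median difference over all genes was -0.007 with it and 0.0004 without it.

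**Figure D2:**
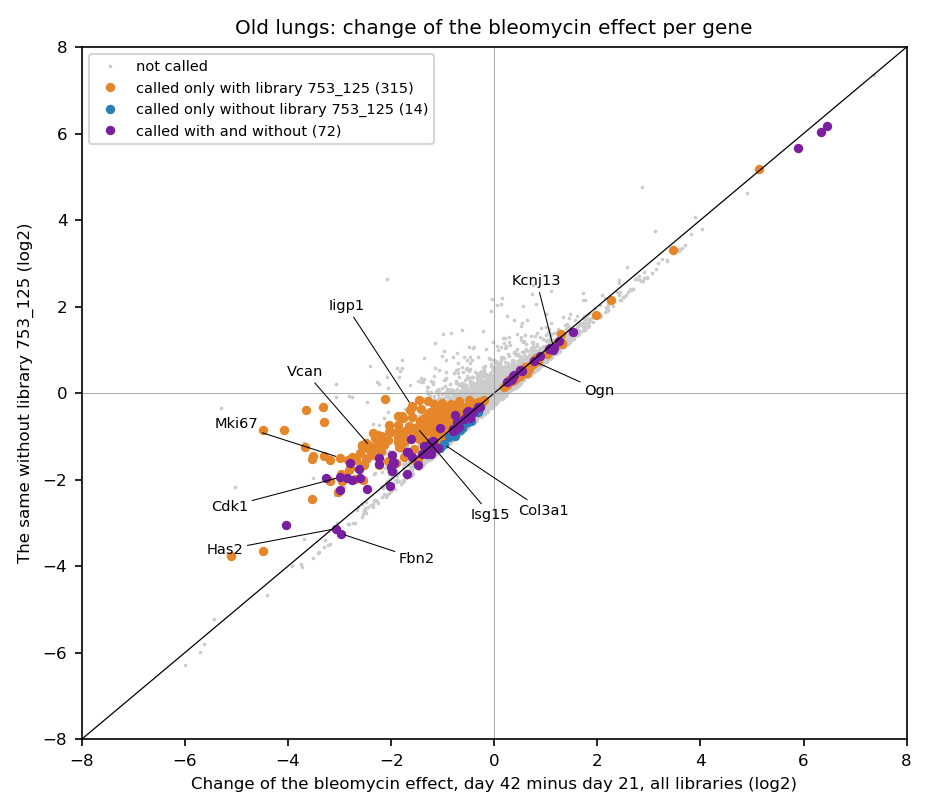
Change of the bleomycin effect from day 21 to day 42 in old lungs for each gene, in log2, with all libraries (x axis) and without library 753_125 (y axis); each point is a gene, coloured by where it was called, and the line marks equal values. Mki67 and Iigp1 lie nearer to 0 without library 753_125, while Has2 and Fbn2 lie on or below the line.

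At day 21 bleomycin raised 3881 genes (21.1%) and lowered 3934 (21.4%) against saline. At day 42 the counts were 1798 (9.77%) and 1812 (9.85%), and without library 753_125 they were 1969 (10.7%) and 1686 (9.17%). Of the 25 interstitial matrix genes, 24 were raised at day 21 with a median log2 effect of 1.84, and 17 at day 42 with a median of 0.72. Of the 17 genes of macrophages derived from monocytes, 16 were raised at day 21 (median 1.95) and all 17 at day 42 (median 1.16), or 16 of 17 without library 753_125 (median 1.26). The median over all genes was -0.01 at day 21 and -0.03 at day 42. In these whole lungs, fewer cells of a type and less RNA per cell cannot be told apart.

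**Figure D3:**
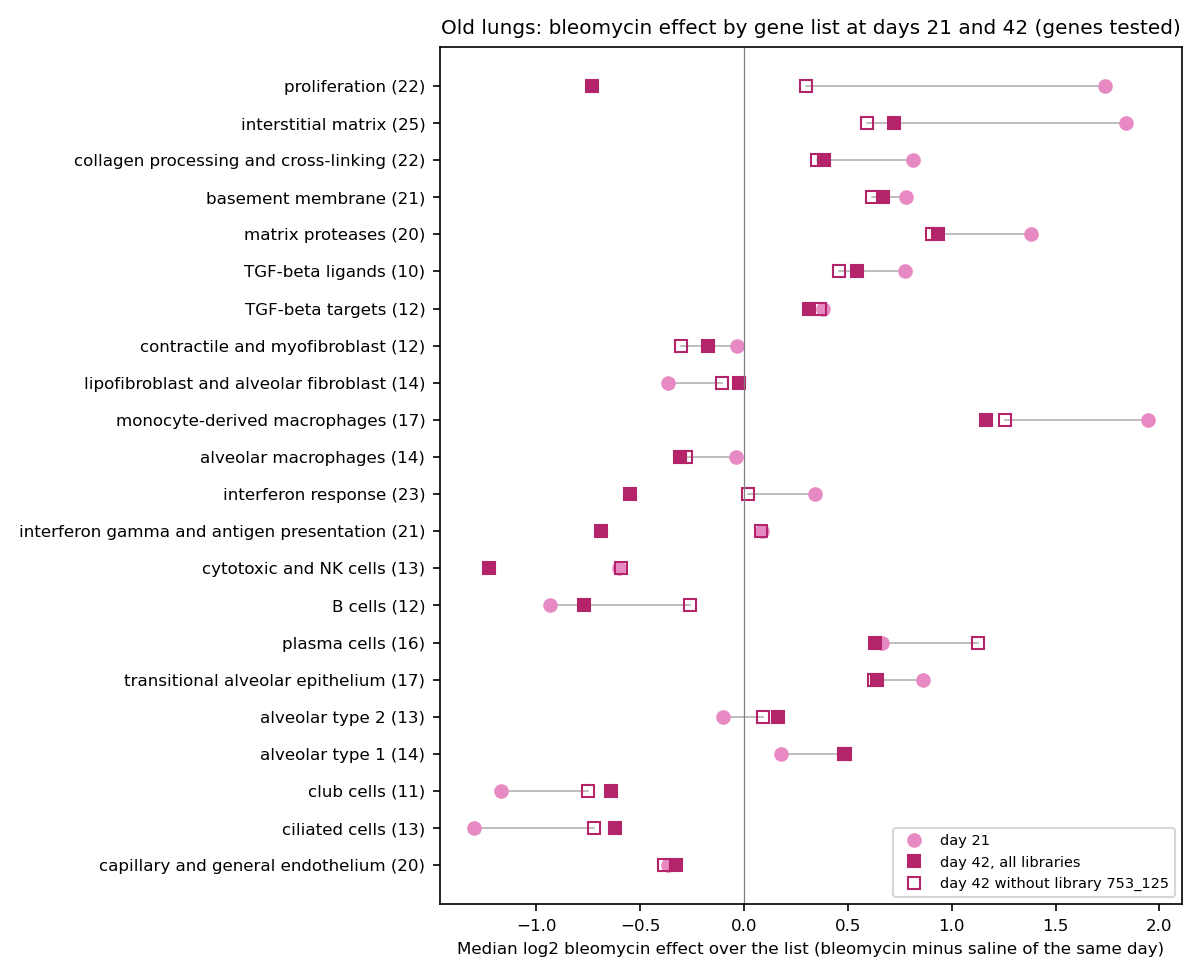
Median log2 bleomycin effect (x axis, bleomycin minus saline of the same day) over the tested members of 22 gene lists (y axis, number of members in brackets) at day 21 (circles) and at day 42 with (filled squares) and without (open squares) library 753_125. Interstitial matrix moves from 1.84 to 0.72 and stays near that without library 753_125 (0.59), whereas proliferation moves from 1.74 to -0.73 with library 753_125 and to 0.30 without it.

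Of the 51 gene lists examined, that of cell division had the most members called. The bleomycin effect was lower at day 42 for 21 of the 22 proliferation genes with all libraries (median difference -2.34), and for 6 of 22 without library 753_125 (median -1.32). The shares of all genes called lower were 1.61% and 0.37%. All 22 differences were below 0 either way, against 51.3% of all genes with library 753_125 and 49.9% without it. The 6 called both ways were Cdk1, the kinase that drives entry into mitosis, its partner Ccnb2 (cyclin B2), the mitotic kinase Aurka, the kinetochore protein Cenpf, and Prc1 and Kif20a, which act at the spindle midzone when the cell divides.

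Cdk1 (ENSMUSG00000019942, GRCm38 chromosome 10, 69335146 to 69352938) was measured at 0.782 to 1.296 CPM with a median of 0.844 in saline lungs of day 21, and at 2.27 to 8.18 CPM with a median of 5.29 in bleomycin lungs of day 21. At day 42 the saline lungs held 10.4 CPM in library 753_125 and 0.6252 to 2.79 CPM in the other 5. The bleomycin lungs of day 42, libraries 753_126, 753_128, 753_129, 753_130 and 753_142, held 2.23, 2.26, 2.39, 2.01 and 1.79 CPM. All 6 bleomycin lungs exceeded all 6 saline lungs at day 21, while at day 42 the groups overlapped with or without library 753_125. The bleomycin effect on Cdk1 was 2.52 ± 0.35 at day 21 and -0.47 ± 0.35 at day 42, or 0.58 ± 0.33 without library 753_125. The difference between the days was -2.99 ± 0.50 (adjusted p = 5.5e-05, edgeR) and -1.95 ± 0.45 (adjusted p = 0.017) without library 753_125.

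Cenpf (ENSMUSG00000026605, GRCm38 chromosome 1, 189640606 to 189688086) had the same arrangement of groups. It stood at 0.761 to 2.13 CPM in saline and 3.33 to 8.71 CPM in bleomycin lungs at day 21, which did not overlap. At day 42 the saline lungs held 14.3 CPM in library 753_125 and 1.20 to 6.35 CPM in the other 5, and the bleomycin lungs held 2.91, 2.47, 2.45, 4.25 and 2.29 CPM. Its effect differed between the days by -2.99 ± 0.47 (adjusted p = 1.7e-05, edgeR) and by -2.25 ± 0.43 (adjusted p = 0.0037) without library 753_125. Library 753_122 was the second highest saline lung of day 42 for Cenpf, Cdk1, Prc1 and Kif20a. When library 753_122 was left out together with library 753_125, none of the 22 proliferation genes was called (median -1.05).

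For Prc1 the difference was -2.23 ± 0.34 with and -1.63 ± 0.30 without library 753_125, and for Kif20a it was -2.75 ± 0.43 and -2.01 ± 0.39. For Ccnb2 the values were -2.23 ± 0.38 and -1.49 ± 0.33, and for Aurka -1.98 ± 0.36 and -1.44 ± 0.33. Iqgap3, a scaffold protein of dividing cells outside the list, was called both ways too, at -3.26 ± 0.54 and -1.97 ± 0.47. All 7 were raised at day 21, by 1.39 (Ccnb2) to 2.52 (Cdk1 and Iqgap3). Because the day 21 effect is part of the difference by which they were called, a rise there was favoured in advance.

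Mki67, the gene of the Ki-67 antigen that marks cycling cells, was called only with library 753_125. It held 5.47 to 7.72 CPM in saline and 13.2 to 40.1 CPM in bleomycin lungs at day 21. At day 42 the saline lungs held 152 CPM in library 753_125 and 5.99 to 25.7 CPM in the other 5, and the bleomycin lungs 12.8, 27.3, 16.2, 18.8 and 15.9 CPM. Library 753_125 exceeded every bleomycin lung of either day. The difference was -3.00 ± 0.56 (adjusted p = 0.00035, edgeR) with it and -1.49 ± 0.46 (adjusted p = 0.11) without it. Top2a, the topoisomerase of replicating chromosomes, gave -2.71 ± 0.51 and -1.49 ± 0.43, and Ube2c, Aspm and Rrm2, likewise genes of dividing cells, were called only with library 753_125 at -2.49, -2.47 and -2.38, against -1.52, -1.50 and -1.35 without it.

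**Figure D4:**
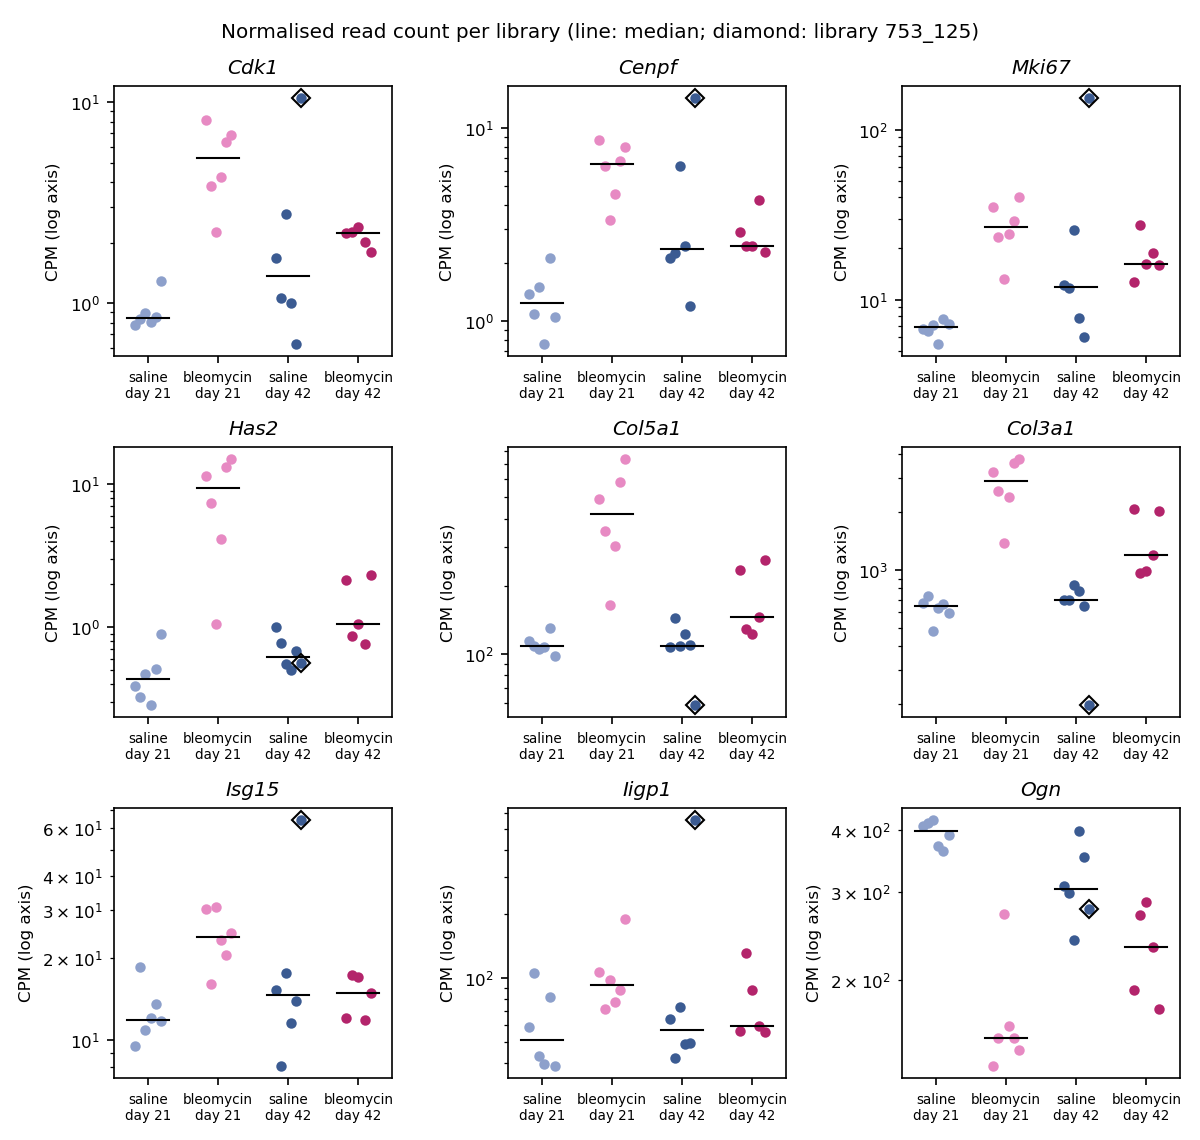
CPM of 9 genes (y axis, log scale) in the 23 old lungs by treatment and day (x axis); each point is 1 library, lines are group medians and the diamond is library 753_125. Cdk1, Cenpf and Mki67 are highest in library 753_125 among the saline lungs of day 42, Has2 and Col5a1 are highest in the bleomycin lungs of day 21 other than library 753_098, and Ogn is lowest in the same lungs.

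Promoters of mitotic genes are known to carry CCAAT boxes and the cell cycle homology region (CHR), whose core is TTTGAA. The stretches below are those of the proliferation genes called both ways that have an entry, all but Kif20a, and the one for Prc1 is the second of its entries. Each runs over the 100 bases before the annotated start, 5′ to 3′ on the gene's own strand, from RefSeq on GRCm38.p6. Capitals mark TTTGAA and CCAAT on either strand (TTCAAA and ATTGG when reversed). Col5a1, a collagen gene called both ways, is given for comparison.
Prc1 (chr7:80294376-80294475, plus strand): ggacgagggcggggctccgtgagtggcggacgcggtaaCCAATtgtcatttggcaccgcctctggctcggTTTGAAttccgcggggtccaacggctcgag
Cdk1 (chr10:69352913-69353012, minus strand): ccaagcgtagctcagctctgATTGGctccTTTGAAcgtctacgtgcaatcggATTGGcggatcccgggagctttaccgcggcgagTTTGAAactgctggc
Ccnb2 (chr9:70421555-70421654, minus strand): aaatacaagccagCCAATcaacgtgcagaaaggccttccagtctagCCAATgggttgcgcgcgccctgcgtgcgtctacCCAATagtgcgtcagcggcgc
Cenpf (chr1:189688087-189688186, minus strand): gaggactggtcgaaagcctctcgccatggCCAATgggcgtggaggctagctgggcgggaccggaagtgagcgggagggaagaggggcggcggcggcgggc
Aurka (chr2:172370571-172370670, minus strand): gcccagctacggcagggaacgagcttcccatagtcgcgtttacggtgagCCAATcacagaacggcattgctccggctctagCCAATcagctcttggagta
Col5a1 (chr2:27886325-27886424, plus strand): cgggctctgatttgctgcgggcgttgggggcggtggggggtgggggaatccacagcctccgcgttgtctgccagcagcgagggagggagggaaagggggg
Cdk1 held both motifs 2 times in this stretch, Prc1 held each 1 time, Ccnb2, Aurka and Cenpf held CCAAT 3, 2 and 1 times and no TTTGAA, and Col5a1 held neither. In windows of 300 bases (250 before to 50 after the start) RefSeq promoters were found for 18 of the 22 proliferation genes. In this wider window Ccnb2, Aurka and Cenpf held TTTGAA as well, outside the 100 bases shown. TTTGAA was present for 12 of the 18 (66.7%), CCAAT for 17 (94.4%) and both for 12. Over the 12878 tested genes with a RefSeq promoter the shares were 15.1%, 41.7% and 5.9%. Of 15 interstitial matrix genes with a promoter, 4 held TTTGAA and 5 CCAAT. A match is a run of letters and not a measured binding site.

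Most genes of the scar matrix did not pass the test singly. All 25 interstitial matrix genes had a difference below 0, with a median of -0.98 with library 753_125 and -1.07 without it. The test called 3 of them with library 753_125 (Vcan, Col5a1 and Col5a3) and 4 without it (Col3a1, Col5a1, Col5a3 and Col6a2). Of all genes tested, 1.61% were called lower with library 753_125 and 0.37% without it. At day 42 the list still stood 0.72 above saline by its median, or 0.59 without library 753_125, with 17 or 11 of its 25 genes raised.

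Has2, the enzyme that makes hyaluronan, had the largest difference among the matrix-related genes named here with all libraries (ENSMUSG00000022367, GRCm38 chromosome 15, 56665627 to 56694539). The saline lungs held 0.285 to 0.891 CPM with a median of 0.432 at day 21 and 0.501 to 1.01 CPM with a median of 0.622 at day 42. The bleomycin lungs held 1.06 to 14.9 CPM with a median of 9.41 at day 21 and 2.13, 0.875, 1.05, 0.767 and 2.34 CPM at day 42. All 6 bleomycin lungs exceeded the saline lungs at day 21, although library 753_098 did so narrowly, and at day 42 the groups overlapped. The effect was 4.16 ± 0.48 at day 21 and 1.08 ± 0.51 at day 42 (1.03 ± 0.54 without library 753_125), so it differed by -3.08 ± 0.70 (adjusted p = 0.0052, edgeR), or -3.14 ± 0.73 (adjusted p = 0.019) without library 753_125. That library lay inside its group for Has2.

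Fbn2, a microfibril protein of growing elastic tissue, had an effect of 3.25 ± 0.48 at day 21 and 0.27 ± 0.49 at day 42 (0.01 ± 0.47 without library 753_125). The bleomycin lungs held 1.45 to 11.8 CPM at day 21 and 3.13, 0.772, 0.701, 0.885 and 2.73 CPM at day 42, against 0.256 to 0.763 CPM and 0.0436 to 5.02 CPM in saline lungs, where library 753_122 was the highest at day 42. The difference was -2.98 ± 0.69 (adjusted p = 0.0058, edgeR) and -3.25 ± 0.67 (adjusted p = 0.0072) without library 753_125.

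Col5a1 (ENSMUSG00000026837, GRCm38 chromosome 2, 27886425 to 28039514) encodes a chain of the type V collagen that sets the width of collagen fibrils. The saline lungs held 97.7 to 130.2 CPM at day 21 and 58.8 CPM in library 753_125 and 107.3 to 144.6 CPM in the other 5 at day 42. The bleomycin lungs held 166 to 737 CPM with a median of 421 at day 21 and 236, 128.3, 122.2, 145.1 and 262 CPM at day 42. The bleomycin groups overlapped between the days, since library 753_098 at day 21 was below libraries 753_126 and 753_142 at day 42. The difference was -1.27 ± 0.36 (adjusted p = 0.040, edgeR) and -1.40 ± 0.37 (adjusted p = 0.047) without library 753_125.

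Col3a1 (ENSMUSG00000026043, GRCm38 chromosome 1, 45311538 to 45349706), the type III collagen of young scar, was called only without library 753_125. Saline lungs held 479 to 733 CPM at day 21 and 198 CPM in library 753_125 and 647 to 833 CPM in the other 5 at day 42. Bleomycin lungs held 1382 to 3739 CPM with a median of 2885 at day 21 and 2061, 965, 990.3, 1192 and 2016 CPM at day 42. Every bleomycin lung exceeded every saline lung at both days. The difference was -0.98 ± 0.31 (adjusted p = 0.066, edgeR) with library 753_125 and -1.18 ± 0.29 (adjusted p = 0.034) without it.

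Col1a1 (ENSMUSG00000001506, GRCm38 chromosome 11, 94936224 to 94953042), the main chain of type I collagen, missed the threshold both ways. Bleomycin lungs held 674 to 3680.4 CPM with a median of 1916 at day 21 and 1236, 482, 473, 614 and 1186 CPM at day 42, against 315 to 409 CPM and 181 to 452 CPM in saline lungs. The difference was -1.34 ± 0.40 (adjusted p = 0.053, edgeR) with library 753_125 and -1.49 ± 0.41 (adjusted p = 0.066) without it. Fibronectin (Fn1), tenascin C (Tnc) and elastin (Eln) gave -1.13 ± 0.44, -1.68 ± 0.55 and -1.04 ± 0.39, or -1.07 ± 0.45, -1.80 ± 0.56 and -1.10 ± 0.40 without library 753_125, and none was called either way. Postn, another matrix gene of the list, gave -0.04 ± 0.13 and was not raised at either day (0.14 ± 0.09 and 0.10 ± 0.10), with a difference of -0.20 ± 0.11 without library 753_125.

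Ccn4, Igfbp4, Penk and Fscn1 were called both ways. Ccn4, a secreted protein induced by Wnt signals, differed by -1.47 ± 0.39 and by -1.67 ± 0.39 without library 753_125, with 17.2 to 71.3 CPM in bleomycin lungs at day 21 and 23.3, 10.4, 11.7, 12.7 and 25.8 CPM at day 42. Igfbp4, a binding protein of insulin-like growth factors, differed by -0.68 ± 0.19 and -0.78 ± 0.19. Penk, the precursor of the enkephalin peptides, was raised at day 21 (1.23 ± 0.26) and lowered at day 42 (-0.75 ± 0.28), a difference of -1.98 ± 0.38 (adjusted p = 0.00060, edgeR). Without library 753_125 its effect at day 42 was -0.56 ± 0.29 and was not called, and the difference was -1.80 ± 0.39 (adjusted p = 0.011). Fscn1, an actin-bundling protein used in the list as a marker of mature dendritic cells, differed by -1.36 ± 0.24 and -1.22 ± 0.24.

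The TGF-beta system, the main signal for scar formation, was read by role. Among all genes, 1.61% were called lower with library 753_125 and 0.37% without it, and 0.489% and 0.0979% higher. Lists this short would hold few or no calls at such shares. Of 10 ligands 1 was called, Tgfb1 itself, at -0.43 ± 0.10 (adjusted p = 0.0084, edgeR). It held 79.9 to 93.3 CPM in saline and 98.2 to 132.9 CPM in bleomycin lungs at day 21. At day 42 the bleomycin lungs held 107.9, 104.9, 105.4, 97.9 and 120.2 CPM, and the saline lungs 144.3 CPM in library 753_125 and 88.5 to 106.5 CPM in the other 5. Without library 753_125 the difference was -0.31 ± 0.09 (adjusted p = 0.097). None of 14 receptors and activating integrins was called with or without library 753_125 (medians -0.09 and -0.12). Of 12 target genes 1 was called with library 753_125, Tgfbi at -0.89 ± 0.25, and none without it, where Tgfbi gave -0.50 ± 0.22 (medians -0.03 and -0.11). Grem1, which blocks BMP ligands, held 5.70 to 108.2 CPM in bleomycin lungs at day 21 and 24.4, 2.78, 2.69, 5.55 and 20.7 CPM at day 42, and its difference of -2.52 ± 0.99, or -2.71 ± 1.03 without library 753_125, was not called.

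Lists of matrix cross-linking and removal had medians nearer to 0. Their counts of calls stand beside 1.61% of all genes called lower with library 753_125 and 0.37% without it. Of 22 genes that process or cross-link collagen none was called with or without library 753_125 (medians -0.38 and -0.46), and of 21 genes of the basement membrane Nid1 alone was called with it (-0.73 ± 0.21, against -0.72 ± 0.22 without it). Of 20 matrix proteases none was called with library 753_125 (median -0.34), and without it 1 was, the gelatinase Mmp2, at -0.86 ± 0.22. That call held in 6 of the 22 fits that left out 1 more library (highest adjusted p 0.16, edgeR). Timp1, the inhibitor of these proteases, gave -1.61 ± 0.56, or -1.65 ± 0.58 without library 753_125, and was not called.

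Macrophage genes were still raised at day 42. Spp1 (osteopontin), a marker of scar-associated macrophages, held 144.8 to 219.5 CPM in saline and 782 to 3043 CPM with a median of 2235 in bleomycin lungs at day 21. At day 42 it held 78.6 to 189 CPM in saline and 2133, 632, 837, 1448 and 2847 CPM in bleomycin lungs, and the groups did not overlap at either day. The bleomycin effect was 3.54 ± 0.35 and 3.28 ± 0.35, a difference of -0.26 ± 0.46, or -0.23 ± 0.47 without library 753_125, that was not called.

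Mmp12, the elastase of macrophages, stood at 93.3 to 138.8 CPM in bleomycin lungs of day 21 and at 118.5, 75.1, 85.2, 118.3 and 156 CPM at day 42, with a difference of -0.27 ± 0.59, or -0.33 ± 0.61 without library 753_125. Trem2, a lipid receptor of macrophages, gave -0.34 ± 0.33 and -0.27 ± 0.34. Over all genes the shares called lower were 1.61% with library 753_125 and 0.37% without it. Of the 17 genes of macrophages derived from monocytes, 3 were called lower with library 753_125 (median -0.26) and none without it (median -0.25). They were Apoe at -0.73 ± 0.20, C1qb at -1.03 ± 0.30 (-0.89 ± 0.30 without library 753_125) and C1qa, and the last 2 encode chains of complement C1q. Apoe held 1934 to 2845 CPM in bleomycin lungs at day 21 and 2048, 1596, 1466, 1300.1 and 1799 CPM at day 42, and its difference without library 753_125 was -0.76 ± 0.20 (adjusted p = 0.056, edgeR). None of 14 alveolar macrophage genes was called either way.

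Interferon-response genes were called only with library 753_125. With it 10 of 23 were lower (median -0.996), and without it none was (median -0.42). Over all genes the shares called lower were 1.61% with it and 0.37% without it. At the second share a list of 23 would hold few or no calls, so having none is not a result by itself. Isg15, a ubiquitin-like protein of antiviral defence, held 9.56 to 18.6 CPM in saline and 16.1 to 30.8 CPM in bleomycin lungs at day 21, which overlapped. At day 42 saline lungs held 64.2 CPM in library 753_125 and 8.05 to 17.7 CPM in the other 5, and bleomycin lungs held 12.1, 17.4, 17.05, 11.9 and 14.9 CPM. Library 753_125 was the highest of all 23. The difference was -1.50 ± 0.34 (adjusted p = 0.0046, edgeR) with it and -0.79 ± 0.29 (adjusted p = 0.19) without it.

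Iigp1, a GTPase induced by interferon gamma, held, among the saline lungs of day 42, 552 CPM in library 753_125 and 42.2 to 72.97 CPM in the other 5. Its difference was -1.60 ± 0.41 with library 753_125 and -0.29 ± 0.30 without it, and its effect at day 42 changed sign, from -0.83 ± 0.30 to 0.49 ± 0.22. Of 21 genes of interferon gamma and antigen presentation 2 were called lower with library 753_125 (median -0.87) and none without it (median -0.10). The shares of all genes called lower were 1.61% and 0.37%. Ighg3, an immunoglobulin heavy chain constant region, held 274 CPM in library 753_125 and 0.781 to 7.33 CPM in the other 5 and moved from -4.48 ± 1.23 to -0.85 ± 1.11. Vcan, the proteoglycan versican, was the call of the matrix list lost without library 753_125. It held 113.5 CPM in library 753_125 and 11.5 to 15.2 CPM in the other 5, and its difference was -2.41 ± 0.47 (adjusted p = 0.00072, edgeR) with it and -1.24 ± 0.40 (adjusted p = 0.13) without it.

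The difference of differences was also read through its 2 sides, which share their libraries with it. Between day 21 and day 42 the bleomycin lungs had 360 genes higher (1.96%) and 508 lower (2.76%). Of the matrix list 19 of 25 genes were lower at day 42 (median -0.95), and of the proliferation list 9 of 22 (median -0.86). The saline lungs had 971 genes higher (5.28%) and 532 lower (2.89%) at day 42, and without library 753_125 235 genes in all, higher for 0.555% and lower for 0.724% of the genes tested. Of the proliferation list 21 of 22 genes were higher in saline lungs at day 42 with library 753_125 (median 1.40), and 1 without it (median 0.50). Of the matrix list 1 gene was higher with it (median -0.03) and none without it (median 0.10). Cdk1 differed between the days by -1.31 ± 0.35 in bleomycin lungs and by 1.69 ± 0.35 in saline lungs, or 0.64 ± 0.33 without library 753_125. For Col5a1 the values were -1.29 ± 0.27 in bleomycin and -0.03 ± 0.25 in saline lungs, or 0.11 ± 0.26 without it.

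The 10 genes named as higher at day 42, called with and without library 753_125, had all been lowered by bleomycin at day 21. The day 21 effect is part of the difference by which they were chosen, so a lowering there was favoured in advance. Ogn (osteoglycin, ENSMUSG00000021390, GRCm38 chromosome 13, 49608046 to 49624501), a small proteoglycan of connective tissue, held 363 to 418 CPM with a median of 399 in saline and 133.99 to 271 CPM with a median of 153 in bleomycin lungs at day 21. At day 42 saline lungs held 241 to 399 CPM and bleomycin lungs 190.2, 270.3, 286, 232 and 174 CPM. The groups were apart at day 21, where library 753_098 was the highest bleomycin lung, and overlapped at day 42. The effect was -1.22 ± 0.12 and then -0.44 ± 0.12 (-0.48 ± 0.13 without library 753_125), a difference of 0.78 ± 0.17 (adjusted p = 0.0022, edgeR), or 0.73 ± 0.17 (adjusted p = 0.020) without library 753_125.

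Smad9, a transcription factor that carries BMP signals, held 16.9 to 22.7 CPM in saline and 6.40 to 17.1 CPM in bleomycin lungs at day 21. At day 42 it held 14.5 to 22.1 CPM and 10.6, 16.5, 18.7, 15.4 and 13.4 CPM, which overlapped, as they did at day 21 through library 753_098 alone. Its difference was 0.89 ± 0.22 and 0.87 ± 0.23 without library 753_125. Kcnj13, an inward rectifier potassium channel, held 8.99 to 11.6 CPM in saline and 2.96 to 7.05 CPM in bleomycin lungs at day 21, and 5.62 to 11.7 CPM and 8.49, 8.85, 6.42, 9.14 and 7.10 CPM at day 42. Those groups did not overlap at day 21 and did at day 42. Kcnj13 differed by 1.15 ± 0.24 and 1.04 ± 0.24. Clec12b, a C-type lectin receptor, differed by 1.15 ± 0.25 and 1.01 ± 0.25. The other 6 genes named by the same rule had smaller differences, from 0.24 (Lmbrd1) to 0.54 (Slc25a35), and among them Vamp2 of vesicle fusion and Gabarapl1 of autophagy gave 0.32 ± 0.07 and 0.34 ± 0.08, or 0.30 ± 0.07 and 0.34 ± 0.08 without library 753_125.

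Markers of the epithelium and vessels gave no calls in this comparison with or without library 753_125. Of all genes tested, 0.489% were called higher and 1.61% lower with it, and 0.0979% and 0.37% without it. At those shares lists this short would hold few or no calls, so their absence does not set these cells apart. For bleomycin against saline, 21.1% of all genes were raised and 21.4% lowered at day 21. At day 42 it was 9.77% and 9.85%, or 10.7% and 9.17% without library 753_125. Ciliated cell genes were lowered for 13 of 13 at day 21 (median -1.30) and for 9 of 13 at day 42 (median -0.62), or 10 without library 753_125 (median -0.72), and all 13 differences were above 0 (median 0.60, or 0.49 without library 753_125). Club cell genes gave a median difference of 0.55, or 0.45 without library 753_125, and their secretoglobin Scgb1a1 0.68 ± 0.30, or 0.58 ± 0.30. Genes of alveolar type 2 and type 1 cells gave medians of 0.25 and 0.27, or 0.14 and 0.24 without library 753_125. Sftpc stood at 0.25 ± 0.26 with and 0.14 ± 0.26 without it, and Ager at 0.28 ± 0.21 and 0.28 ± 0.21. Of 20 capillary and general endothelial genes 14 were lowered at each day, or 15 at day 42 without library 753_125, and the median difference was 0.01, or -0.02. The transitional alveolar epithelium, cells caught between type 2 and type 1 that bear Krt8, had 15 of 17 genes raised at day 21 and 14 at day 42, with or without library 753_125. Krt8 gave -0.25 ± 0.18 and -0.32 ± 0.18 without it, and Cldn4 -1.57 ± 0.55 and -1.64 ± 0.56.

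The same difference was measured in 19 young lungs, none of which is among the 23. There the effect was higher at day 42 for 0.631% of the genes tested and lower for 240 (1.3%). Has2 gave -3.12 ± 0.76 in young and -3.08 ± 0.70 in old lungs, and Col5a1 -1.52 ± 0.40 and -1.27 ± 0.36. Cdk1 gave -1.90 ± 0.58 in young lungs, against -2.99 ± 0.50 with and -1.95 ± 0.45 without library 753_125 in old ones, and Spp1 -1.45 ± 0.51 against -0.26 ± 0.46 in old ones. The medians in young lungs were -1.30 for interstitial matrix with 13 of 25 genes lower, -1.31 for proliferation with 1 of 22 lower, and -0.99 for macrophages derived from monocytes with 4 of 17 lower. A direct test of old minus young called 0 genes (0%) in edgeR with library 753_125 and 0 (0%) without it. At an unadjusted p under 0.05 there were 746 and 667 genes, DESeq2 called 5 with and 5 without that library, and limma with voom quality weights called 1 and 0. For Cdk1 old minus young was -1.10 ± 0.76 with library 753_125 and -0.06 ± 0.68 without it, and it was called neither way. For Col5a1 the values were 0.25 ± 0.54 and 0.11 ± 0.54, and for Spp1 1.19 ± 0.69 and 1.20 ± 0.70.

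The number of genes called also moved with lungs other than library 753_125. Leaving out library 753_098, a bleomycin lung of day 21 with the lowest matrix score of its group (6.96 against 7.82 to 8.75 in the others), gave 1045 genes, and 482 without library 753_125 as well. Leaving out 1 of the saline lungs of day 42, library 753_124 or library 753_123, gave 791 or 603 genes. Fewer genes were called without library 753_096 (251), 753_100 (237) or 753_101 (173) among the bleomycin lungs of day 21, or without library 753_130 (210) of day 42. With library 753_125 also left out, the count was 9 without library 753_122, 23 to 34 without 753_096, 753_100, 753_101, 753_128, 753_129 or 753_130, and 44 to 56 without 753_090, 753_092, 753_093 or 753_123. It was 191 without 753_124, and 1.67 and 1.55 times the 86 without 753_126 and 753_142. For the matrix list the median stayed between -1.15 and -0.80 over the 23 such fits, while its calls ran from 1 to 15 of 25, the last without library 753_098. Only 1 was called without any 1 of 753_090, 753_092, 753_093, 753_095, 753_096, 753_100, 753_101, 753_121, 753_128, 753_129 or 753_130, and 5 without 753_099. Libraries 753_126 and 753_142 had matrix scores of 7.80 and 7.73, against 6.79 to 7.07 in the other 3 bleomycin lungs of day 42, and leaving out 1 or the other gave 12 or 7 matrix calls. With library 753_125 also left out, the matrix calls ran from 0 to 16 and the median from -1.26 to -0.86. Proliferation calls then ran from 0 (without 753_122) and 3 (without 753_096) to 11 (without 753_124) and 15 (without 753_098).

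Single genes held to different degrees when 1 library was left out. Penk and Fscn1 were called in all 23 such fits and in all 22 with library 753_125 also left out. Cdk1, Ccnb2, Aurka, Cenpf, Prc1, Kif20a, Iqgap3, Has2, Ogn, Smad9, Kcnj13 and Clec12b were called in all 23. With library 753_125 also left out, Cenpf, Prc1 and Kif20a lost the call in 1 fit, without library 753_122, at adjusted p = 0.0681, 0.0501 and 0.0552 (edgeR). Cdk1 lost it in 3, without 753_096, 753_101 or 753_122 (highest adjusted p 0.16), and Has2 in 7, without 753_100, 753_101, 753_120, 753_122, 753_128, 753_129 or 753_130 (0.062). The call was lost for Ccnb2 in 2 (0.068), Aurka in 4 (0.081), Iqgap3 in 10 (0.17), Kcnj13 in 4 (0.061), Ogn in 6 (0.10), Clec12b in 11 (0.13) and Smad9 in 16 (0.14). Without library 753_122 Fbn2 lost it either way, and its difference went from -2.98 to -1.97 (adjusted p = 0.11) and, with library 753_125 also left out, from -3.25 to -2.29 (adjusted p = 0.16). Col5a1 lost it in 11 of 23 fits (highest adjusted p 0.15), and in 15 of 22 with library 753_125 also left out (0.20). Ccn4 lost it in 6 of 23 and 6 of 22, and Igfbp4 in 10 of 23 and 12 of 22. Col3a1, called only without library 753_125, lost it in 12 of 22 (highest adjusted p 0.12). Among the smaller positive differences Lmbrd1, Vamp2, Gabarapl1 and Slc25a35 lost it in 1, 8, 9 and 12 of the 22, and in none of the 23. Lin52 and Kbtbd7, named by the same rule, lost it in 13 and 14 of the 22, and in 7 and 10 of the 23. Of genes called only with library 753_125, Apoe lost it in 5 of 23, Tgfbi in 6, C1qb in 10 and Nid1 in 11. All these calls were lost for the 4 old groups alone.

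**Figure D5:**
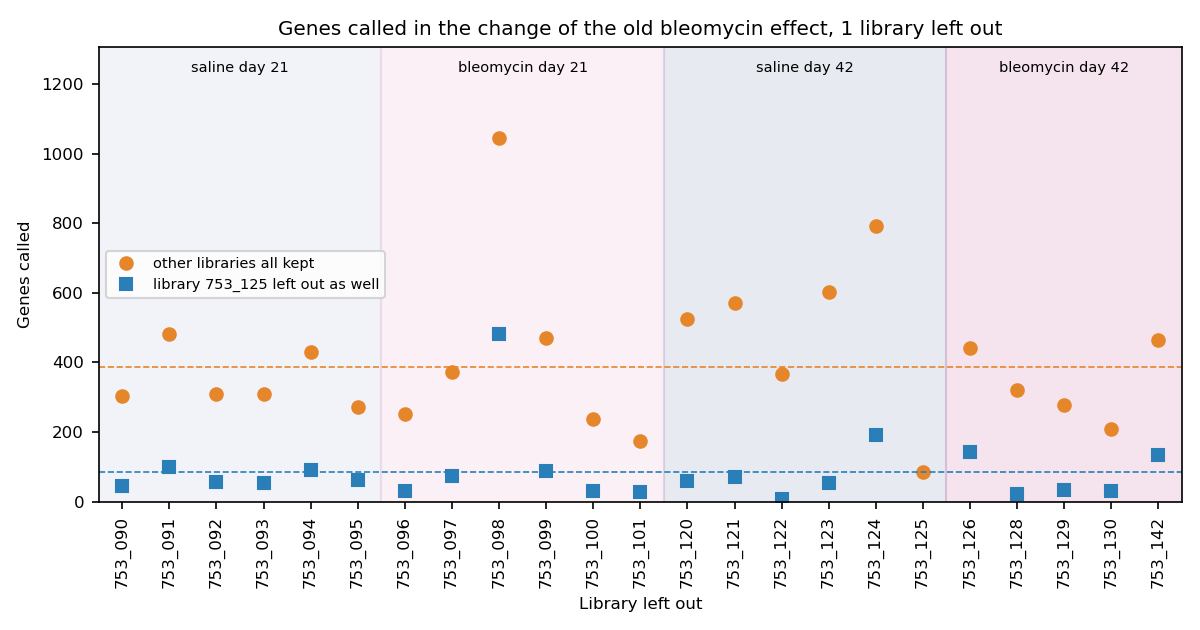
Number of genes called in the change of the bleomycin effect (y axis) when the library on the x axis is left out, with library 753_125 kept (circles) or left out as well (squares); dashed lines are the counts of 387 and 86 with no further library left out. The count is highest without library 753_098 (1045) and falls to 86 without library 753_125.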

How the data were processed

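The authors deposited raw read counts per gene, 1 table for all 137 lung libraries. The submitters' processing notes name bcl2fastq 2.20.0.422, STAR 2.5.2b, RSEM 1.3.0 and featureCounts 1.5.1 and the build GRCm38. Annotation release and strand setting are not given in the sources used here, so reads of overlapping genes on opposite strands could not be told apart. Names and positions came from GENCODE M21. Genes were kept by filterByExpr (minimum count 10, minimum total 15), libraries were scaled by TMM, and all 26 groups were fitted together in edgeR 4.0.16 with the robust quasi-likelihood F test (R 4.3.3, 111 residual degrees of freedom). The contrast was tested with and without library 753_125, and the biological coefficient of variation was 16.0% and 15.4%. P-values were adjusted by Benjamini-Hochberg over all genes tested. Alternatives were DESeq2 1.42.0, limma 3.58.1 with voom quality weights, DESeq2 size factors, no filter on low counts, the 4 old groups alone, and leaving out each of the 23 libraries. The edgeR fit of all libraries was tested on simulated counts with known changes in the old bleomycin lungs of day 42. No library stood apart in that simulation, and the other fits were not tested in this way.

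The genes, the 51 lists and the choice of library 753_125 were made with earlier results of these data known. Genes named are a panel of 30, the 10 largest changes each way among genes called with and without library 753_125 (average log2 CPM above 1, no predicted genes or antigen receptor segments), the 6 largest called only with it and only without it, and up to 2 members of each list. Those members had the smallest p of their list in the tested difference (edgeR, library 753_125 kept). They are thus extreme members and do not stand for their lists. Promoters are from RefSeq (GRCm38.p6), matched by symbol. Results for some genes are not reported here.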

Additional observations from a re-analysis of the deposited data

Results flagged for a closer look

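Values were compared within each group of old lungs by Dixon's ratio of gap to range, for 22 genes and 6 list scores in 4 groups. Of these sets 25 had a lung that lay apart at the 95% level, where chance gives about 1 in 20 for sets chosen beforehand. The 25 cannot be set against that rate, because the genes and lists were chosen with earlier results of these data known. Some of the genes, such as Mki67 and Vcan, were called only with library 753_125, and the sets share their lungs. Of the 25, 14 were library 753_125 among the saline lungs of day 42. Its values were 10.4 CPM for Cdk1, 18.1 for Prc1, 10.2 for Kif20a, 152 for Mki67 and 113.5 for Vcan. It also held 144.3 CPM of Tgfb1, 64.2 of Isg15, 106.2 of Ifit1 and 552 of Iigp1. It was the lowest for Col3a1 at 198 CPM and Col1a1 at 181 CPM. Its list scores were 5.71 for interstitial matrix, 8.57 for interferon gamma and antigen presentation and 4.12 for cytotoxic and NK cells.

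Library 753_098 lay apart from the other bleomycin lungs of day 21 for Ogn (271 CPM), Smad9 (17.1 CPM) and the score of macrophages derived from monocytes (6.91). In the same group library 753_101 held 191 CPM of Iigp1. Among the saline lungs of day 42, library 753_122 held 5.02 CPM of Fbn2 and 78.6 CPM of Spp1, and library 753_124 held 22.1 CPM of Smad9. Among the saline lungs of day 21, library 753_095 held 1.296 CPM of Cdk1 and 0.891 CPM of Has2, library 753_091 held 33.7 CPM of Ifit1 and library 753_094 held 2.98 CPM of Penk.

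The bleomycin effect itself differed between the days for 387 genes with library 753_125 and for 86 without it, by the test of the difference (edgeR).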

How the results depend on the processing

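The number of genes called was 387 with all libraries. It was 238 with no filter on low counts, 0 for the 4 old groups alone, and 86 to 1045 when 1 library was left out. Without library 753_125 it was 86, and became 44 with no filter, 412 with voom quality weights, 0 for the 4 old groups alone, and 9 to 482 with 1 more library left out. For day 42 against day 21 within bleomycin lungs the 868 genes became 466 with no filter, 2531 with voom, 0 for the groups alone and 243 to 2286 with 1 library left out. Within saline lungs the 1503 became 591 with voom, 0 for the groups alone and 235 to 2041. Old minus young was 0 in edgeR, 5 in DESeq2 and 1 with voom. The other settings kept these counts within 1.5 times. Leaving out 1 library at a time moved the day 42 effect across 0 for Iigp1 (-1.09 to 0.49, and 0.31 with voom), Ighg3 (-2.92 to 1.21, and 0.57 with voom), Irgm1 (-0.92 to 0.021), Spib (-1.86 to 0.075) and Klrg1 (-1.42 to 0.14). It did the same to the difference within saline lungs for Ifit1 (-0.0091 to 0.76, and -0.058 with voom), Klrg1 (-0.22 to 1.36, and -0.0044 with voom), Iigp1 (-0.14 to 1.39), Irgm1 (-0.010 to 0.93) and Mmp8 (-0.078 to 1.24). In each case the value on the other side of 0 was the one without library 753_125. Why the settings differ was not tested. Counts of list members with 1 library left out were added after seeing the data. The labels number no replicates across groups, so no paired fit was made. Genes at a few CPM, such as Cdk1 and Has2, rest on few reads per library.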

Other observations

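Fat cell genes fell outside the comparisons of the report. All 9 adipocyte markers had a difference below 0 between the days (median -1.78 with library 753_125 and -2.02 without it), and none was called. The adipokine gene Retn (resistin) gave -2.01 ± 1.07 and Cfd (adipsin) -1.85 ± 1.04, or -2.11 ± 1.10 and -2.03 ± 1.06 without library 753_125. At day 42 bleomycin lungs had 5 of the 9 genes called below saline, or 7 without library 753_125, and at day 21 1 of 9. The shares of all genes lowered were 9.85% at day 42, or 9.17% without library 753_125, and 21.4% at day 21. The mean log2 CPM of the 9 genes spread widely among the saline lungs of day 42, from 0.24 to 3.40. Libraries 753_120 (3.40) and 753_123 (3.11) were the highest. The bleomycin lungs of day 42 ran from 0.15 to 0.68. In young lungs the median of the same genes was 1.67. Heart muscle genes gave a median of 0.44, or 0.34 without library 753_125, with none of 10 called either way. At day 21, 9 of 10 were called below saline (median -1.44), against 21.4% of all genes. How much tissue other than lung each sample held was not tested.

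The largest positive differences among genes called with library 753_125 included antigen receptor segments, chosen for this remark after their values were seen. Of 217 such segments 4 were called with library 753_125, all higher, and 3 without it. The shares of all genes called higher were 0.489% and 0.0979%. Igkv6-17, a variable segment of the kappa light chain, gave 6.46 ± 1.02 (adjusted p = 1.7e-05, edgeR), and Ighv4-1, a variable segment of the heavy chain, gave 6.33 ± 1.33. Both values came from 1 bleomycin lung of day 42, library 753_128, which held 867 CPM of Igkv6-17 and 472 CPM of Ighv4-1. The other 22 lungs held at most 12.7 and 6.78 CPM. Ighv5-4 gave 5.90 ± 1.21, and its highest value, 42.0 CPM, was in library 753_092, a saline lung of day 21. Segments resemble each other closely, so reads of 1 may have been counted for another.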
